A study of Mus musculus with 3 samples.

Results

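Runx3 peaks that sat on a promoter with H3K4me1 across the peak midpoint numbered 3533, out of 15524 Runx3 peaks in resting splenic NK cells (NKC). They are called members here. A member was chosen by position alone: its midpoint lay under 1 kb from a protein-coding transcript start on mm9 and inside a region of the H3K4me1 list. Of all Runx3 peaks, 5533 lay that close to a coding start. H3K4me1 covered the midpoint in 3533 of them and overlapped only the peak's flanks in 1741, which are called beside peaks. The remaining 259 overlapped no H3K4me1 region.

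The data were chromatin immunoprecipitation sequencing (ChIP-seq) of freshly isolated splenic NKC from ICR mice, with 1 sample for an in-house Runx3 antibody, 1 for a monoclonal H3K4me1 antibody and 1 for non-immune serum (NIS), the control. The cells were resting, and the labels give no mutation and no agent for any group. The deposited lists hold coordinates without a score, read depth or replicate, so no comparison below has a test over samples. The intervals given are at 95%. They cover counting error alone, because the peaks of a single list do not replicate the cells. Wilson's method was used for shares, Newcombe's for differences of shares and order statistics for medians. The labels name NKp46 as the sorting marker and the study's methods name DX5.

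Runx3 is a DNA-binding factor of cytotoxic lymphocytes that acts with its partner Cbfb. Monomethylation of lysine 4 on histone H3 is best known from enhancers. At active promoters it usually gives way to trimethylation around the start and persists on the flanks. Mammalian promoters fall broadly into those within CpG islands, typical of housekeeping genes, and CpG-poor ones, typical of tissue-restricted genes.

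The sequences below show the match to the RUNX site nearest the midpoint in 1 member per lymphocyte gene list, the widest member with a match within 100 bp of its midpoint that was not already shown for an earlier list. Il2rb, which is in the NK receptor and the cytokine receptor lists, is shown once. Each is a stretch of 30 bases of mm9, written 5′ to 3′ on the strand of the match, with the match in capitals. Il2rb (chr15:78325664-78325693, plus strand) stands for NK cell receptors, Unc13d (chr11:115939233-115939262, plus) for cytotoxic granule genes and Ccl3 (chr11:83462985-83463014, minus) for cytokines and chemokines. Ifngr2 (chr16:91546664-91546693, plus) stands for cytokine receptors, S1pr1 (chr3:115415252-115415281, plus) for chemokine receptors and integrins, Cd247 (chr1:167718567-167718596, minus) for signalling genes and Runx1 (chr16:92826274-92826303, plus) for transcription factors.
Il2rb: tcacacagttacTGTGGTacagggacctag
Unc13d: ccaccggagaccTGTGGTgttctcacccta
Ccl3: atcctgggccccTGTGGTcactgtggaccc
Ifngr2: aggagcaatagcTGCGGTtcgatgacccct
S1pr1: gaatatagtgctTGTGGTagagcgggagca
Cd247: tctaagttgctgTGTGGCcttgaagcatct
Runx1: aacttgtggttcTGTGGTtgtttatgaggt
All 7 of these members were CpG-poor by the measure given next. In Ccl3 the centre of the match lay 5 bp from the midpoint, and in Unc13d 55 bp from it.

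CpG content was measured in 500 bp centred on the midpoint. A peak was called CpG-rich where G+C was at least 50% and the CpG dinucleotides numbered at least 0.6 of those expected from the C and G content, and otherwise CpG-poor. The sequences below are the central 120 bp of the widest CpG-poor and CpG-rich members whose nearest start belongs to a gene of a lymphocyte list, with no exon at the centre. CpG dinucleotides are in capitals, and each is written on the strand of its gene. Serpinb9 (chr13:33096032-33096151, plus) and Nkg7 (chr7:50692183-50692302, plus) are CpG-poor, and Tgfbr1 (chr4:47365819-47365938, plus) and Runx3 itself (chr4:134708006-134708125, plus) are CpG-rich.
Serpinb9: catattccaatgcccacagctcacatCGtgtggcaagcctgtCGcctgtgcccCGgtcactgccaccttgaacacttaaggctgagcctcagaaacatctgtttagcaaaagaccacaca
Nkg7: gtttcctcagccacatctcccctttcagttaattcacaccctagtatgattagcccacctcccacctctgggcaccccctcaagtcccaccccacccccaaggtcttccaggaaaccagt
Tgfbr1: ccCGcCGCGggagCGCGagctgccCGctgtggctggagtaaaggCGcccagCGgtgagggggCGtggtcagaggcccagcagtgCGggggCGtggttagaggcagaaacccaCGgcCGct
Runx3: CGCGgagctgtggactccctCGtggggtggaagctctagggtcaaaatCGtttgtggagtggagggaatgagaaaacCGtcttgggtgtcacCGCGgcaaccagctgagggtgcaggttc
The Nkg7 stretch held 0 CpG and the Serpinb9 stretch 3, whereas the Runx3 stretch held 7 and the Tgfbr1 stretch 13.

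Most members were CpG-rich, but fewer than among the beside peaks. CpG-rich members numbered 2379 of 3533 (67.3%, interval 65.8 to 68.9%), against 1618 of 1741 beside peaks (92.9%, interval 91.6 to 94.0%). The difference was -25.6 percentage points (interval -27.5 to -23.6). The median CpG ratio was 0.731 in members (interval 0.721 to 0.740) and 0.850 in beside peaks (0.841 to 0.860). Around the 5'-most start of all 22365 protein-coding genes the median was 0.595, with 48.1% of starts CpG-rich. Runx3 peaks over 5 kb from any coding start had a median ratio of 0.228, with 3.70% CpG-rich.

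The spread of the ratio was wider in members than in beside peaks. The middle 50% of members ran from 0.538 to 0.847, and that of beside peaks from 0.762 to 0.941. Read from the other side, 1154 of 1319 CpG-poor promoter peaks had H3K4me1 across the midpoint (87.5%, interval 85.6 to 89.2%), against 2379 of 4214 CpG-rich ones (56.5%).

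**Figure D1:**
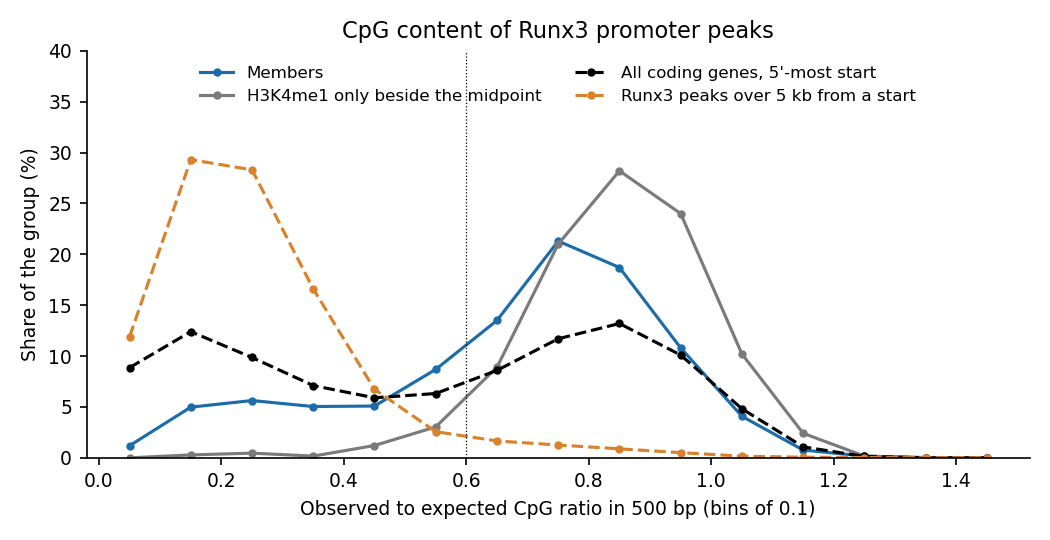
Share of each group of peaks or starts (y axis, %) by observed to expected CpG ratio in 500 bp (x axis, bins of 0.1), with the dotted line at 0.6. Members peak between 0.7 and 0.8 with a tail at low ratios, the beside peaks between 0.8 and 0.9 with almost no tail, and Runx3 peaks over 5 kb from a start below 0.3.

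CpG-poor members often stood near a CpG-rich start. Of the 1154 CpG-poor members, 433 (37.5%) had a nearest start whose own 500 bp window was CpG-rich. With the window moved to the nearest start, 77.1% of members and 93.6% of beside peaks were CpG-rich, and the difference shrank to -16.5 points (interval -18.3 to -14.6).

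The extremes show the range. The highest ratios belonged to members at Yy1, a zinc finger factor (1.30), Pom121, a nuclear pore protein (1.27), 2700060E02Rik (1.24), Wipi2, an autophagy protein (1.23), and Hist1h4h, a histone H4 gene (1.22). The lowest were at 4933427D14Rik, Il12rb2, a chain of the interleukin-12 receptor, and Klra5, a lectin-like NK receptor, each with a ratio of 0. They were followed by the kinase genes Camk2b (0.0260) and Akt2 (0.0317). Il12rb2 had a further member at another start with a ratio of 0.689, which was CpG-rich, so alternative starts of 1 gene fell into both classes.

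Members lay mostly upstream of the start. Of the 3519 members with a side, 1403 had the midpoint downstream (39.9%, interval 38.3 to 41.5%) and 60.1% upstream. The median signed distance, in which negative values are upstream, was -33 bp (interval -39 to -28). The start was under 100 bp away in 42.2% of members, under 200 bp in 62.8% and under 500 bp in 86.0%. A further 11 midpoints fell on the start itself, and 3 had equally near starts that gave different sides. In all, 45.9% of midpoints were outside coding transcripts, 24.6% in an intron, 21.7% in a UTR exon and 7.70% in coding sequence.

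The upstream excess was present in both CpG classes. In CpG-rich members 38.0% of midpoints were downstream and in CpG-poor ones 43.6%, a difference of 5.57 points (interval 2.11 to 9.04). Among beside peaks 41.9% were downstream, and the difference of members from them was -2.03 points, with an interval that included 0 (-4.87 to 0.794). Between the CpG-rich peaks of both classes it was -3.67 points (interval -6.77 to -0.571). The excess was found at short distances. In members the downstream share was 39.0% under 100 bp from the start, 33.6% at 100 to 200 bp and 33.7% at 200 to 400 bp. It was 50.1% at 400 to 700 bp and 61.8% (interval 55.6 to 67.5%) at 700 to 1000 bp. Beside peaks took a similar course over the same distance classes, with 43.0%, 35.9%, 40.0%, 52.2% and 66.7% (interval 49.6 to 80.2%, 33 peaks).

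**Figure D2:**
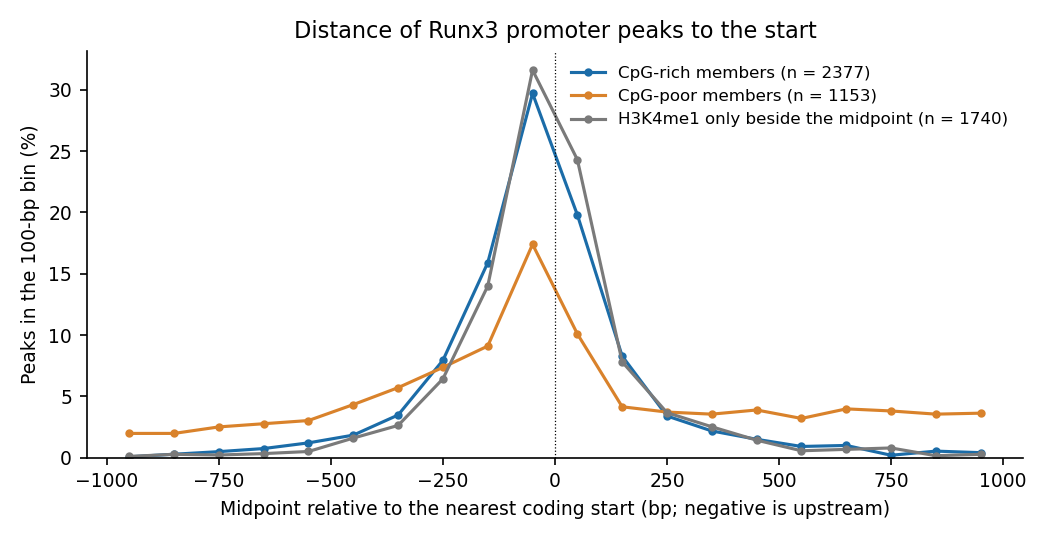
Share of peaks per 100-bp bin (y axis, %) by midpoint position relative to the nearest coding start (x axis, bp, negative upstream), for 2377 CpG-rich and 1153 CpG-poor members and 1740 beside peaks. All groups are highest in the 100 bp before the start, with 29.7%, 17.4% and 31.6%, and CpG-poor members keep 1.99% to 3.99% per bin out to both ends of the range beyond 500 bp.

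CpG content and distance moved together. The median absolute distance was 101 bp in CpG-rich members (interval 95 to 109) and 280 bp in CpG-poor ones (253 to 307). The CpG-rich share was 78.9% in members under 100 bp from the start and 19.5% at 700 to 1000 bp. Within each of the 5 distance classes members were CpG-rich less often than beside peaks, from 78.9% against 95.3% in the nearest to 19.5% against 81.8% in the farthest, where the beside peaks numbered 33. The nearest start was the 5'-most of its gene for 76.5% of CpG-rich and 56.8% of CpG-poor members. Coding starts of both strands under 1 kb away were found at 9.93% of members and 21.5% of beside peaks, a difference of -11.6 points (interval -13.8 to -9.47). That difference was also present between CpG-rich members and CpG-rich beside peaks (12.2% and 22.1%).

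The rule placed a member's midpoint inside an H3K4me1 region, but the fit was often narrow. The 3533 members lay in 3443 regions with a median width of 2213 bp as counted per member (middle 50% from 1342 to 3631 bp). The whole peak was inside the region in only 43.6% of members. In CpG-rich members this was 32.0% and in CpG-poor ones 67.5%. The midpoint was under 200 bp from the region's edge in 53.3% of CpG-rich and 14.6% of CpG-poor members. The H3K4me1 regions that held CpG-poor members were wider, with a median of 3528 bp against 1777 bp. The widest, 64550 bp, held the member at Ikzf1, the lymphoid zinc finger factor Ikaros. At the limits of the rule, 469 members had the midpoint under 50 bp inside an edge and 403 promoter peaks had it up to 50 bp outside one. Distances of 999, 998 and 996 bp were the largest within the 1 kb limit, and the next 3 peaks inside H3K4me1 lay at 1001 bp.

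Seen from the start, H3K4me1 dipped in every class. H3K4me1 regions covered 71.2% of the starts nearest CpG-rich members, with 93.2% covered 500 bp upstream and 93.4% covered 1000 bp downstream. At CpG-poor members the values were 80.1%, 92.4% and 88.8%, and at beside peaks 14.1%, 77.0% and 92.2%. Within 500 bp of the start, coverage of members was lowest 100 bp downstream of it, with 63.3% for CpG-rich and 76.8% for CpG-poor members. The region that held the midpoint also covered the start in 69.9% of members. It ended before the start in 18.8% and began after it in 11.3%. These values follow in part from the way the classes were defined. Members were required to have H3K4me1 at a midpoint near the start, and beside peaks to lack it at theirs. The values are given as a description.

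**Figure D3:**
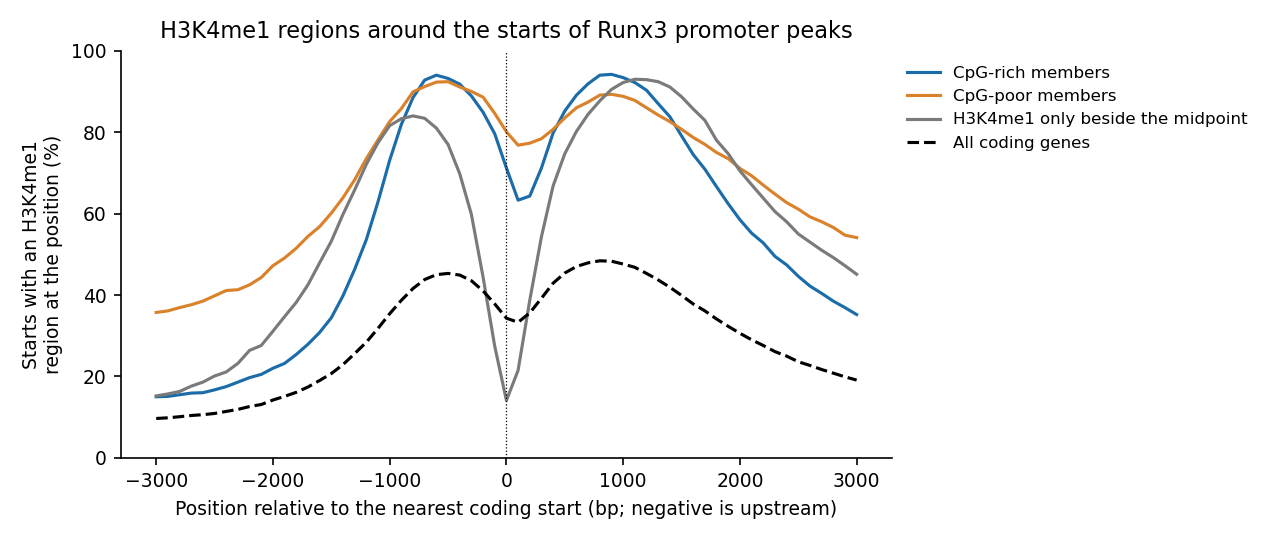
Share of starts with an H3K4me1 region (y axis, %) at each position within 3 kb (x axis, bp, negative upstream) for the nearest starts of members and beside peaks and for the 5'-most starts of all coding genes. Within 500 bp of the start, coverage of beside peaks is lowest at the start itself (14.1%), and that of members 100 bp downstream of it (63.3% for CpG-rich and 76.8% for CpG-poor).

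RUNX matches at the centre of the peak were more frequent in members than in beside peaks. The match was any of 4 forms on either strand in the central 200 bp: the first TGTGGT, the second ending in C (TGTGGC), the third with C as its central pyrimidine (TGCGGT) and the fourth with C at both places (TGCGGC). At least 1 match was found in 2260 members (64.0%, interval 62.4 to 65.5%) and in 54.1% of beside peaks, a difference of 9.86 points (interval 7.04 to 12.7). Over the whole peak, 91.6% of members and 91.8% of beside peaks had a match. Shares this high leave little room for a difference, so they cannot tell whether it was limited to the centre. Beside peaks were wider, with a median of 914 bp against 825 bp. In windows of the same length on the 5'-most starts of all coding genes the share was 36.9%. CpG-poor members had a match in 69.3% and CpG-rich ones in 61.4%. Runx3 peaks over 5 kb from a coding start had one in 74.1%.

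The forms differed in how far they departed from promoters at large. The first form was found in 39.2% of CpG-poor members and 14.3% of CpG-poor coding starts. In CpG-rich members it was found in 17.0%, in CpG-rich beside peaks in 9.02% and in CpG-rich coding starts in 5.47%. The second form was found in 24.2% of CpG-poor members and 14.7% of CpG-poor starts. The third form was present in 20.7% of CpG-rich members and 8.19% of CpG-rich starts, and in 16.1% of CpG-poor members and 3.38% of CpG-poor starts. The fourth form, which like the third contains a CpG, was found in 25.4% of CpG-rich members, 26.3% of CpG-rich beside peaks and 23.1% of CpG-rich starts. Between CpG-rich members and CpG-rich beside peaks the first form differed by 8.0 points (interval 5.91 to 10) and the fourth by -0.836 points, with an interval that included 0 (-3.62 to 1.91). Members and coding starts were not matched for CpG ratio within each CpG class. The median ratio was 0.389 in CpG-poor members and 0.244 at CpG-poor starts. In the CpG-rich class it was slightly lower in members than at starts. The windows of members were also centred on the midpoint and not on the start. What part CpG ratio or window position had in the differences of each form from coding starts was not tested. A match is a description of the letters and not a measured binding site.

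**Figure D4:**
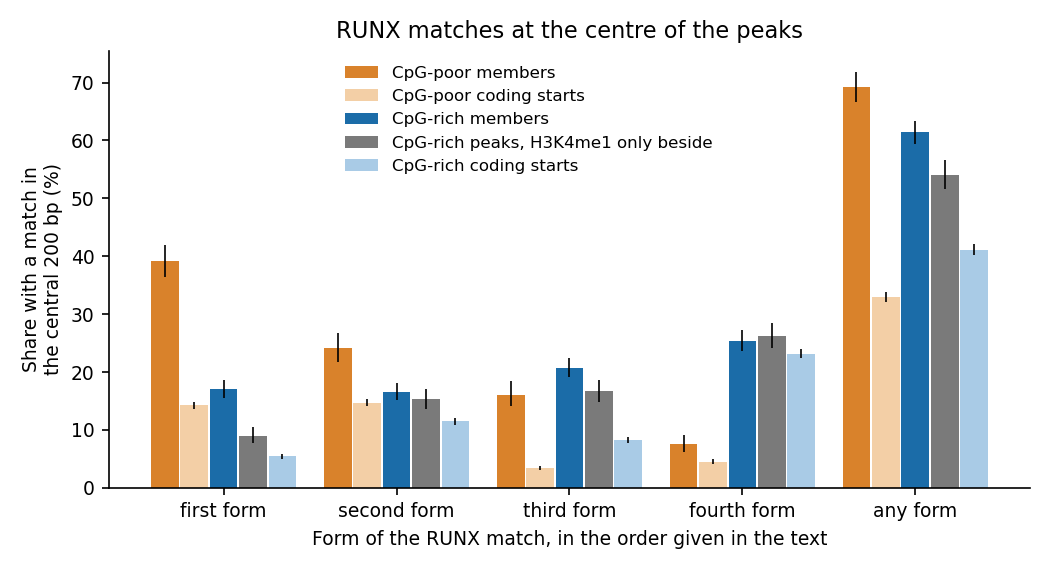
Share of peaks or starts (y axis, %) with each of the 4 forms of the RUNX match, or any of them, in the central 200 bp, with 95% Wilson intervals as bars. The first form stands highest in CpG-poor members (39.2%), and the fourth form is at 25.4% in CpG-rich members and 23.1% in CpG-rich coding starts.

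Other core promoter and lymphocyte motifs were searched on both strands in 200 bp, centred on the midpoint of peaks and on the 5'-most start of coding genes. The windows of members were thus often offset from the start. The median distance of the midpoint was 101 bp in CpG-rich and 280 bp in CpG-poor members. What part this offset, or the unmatched CpG ratio within each CpG class, had in the differences from coding starts was not tested. The SP1 match GGGCGG was present in 50.3% of CpG-rich members, 17.7% of CpG-poor members and 60.8% of CpG-rich beside peaks, against 68.0% of CpG-rich and 14.6% of CpG-poor coding starts. CpG-rich members were thus below CpG-rich starts in SP1 matches, and their difference from CpG-rich beside peaks was -10.5 points (interval -13.6 to -7.35). The ETS matches AGGAAGT or CGGAAGT were found in 18.5% of members, 20.3% of beside peaks and 12.6% of all coding starts. The difference of members from beside peaks had an interval that included 0 (-4.14 to 0.427 points), while that of CpG-rich members from CpG-rich beside peaks was -2.49 points, with an interval that ended just short of 0 (-5.0 to -0.0248). The AP-1 matches TGAGTCA or TGACTCA were found in 2.63% of members and 2.61% of all coding starts. By CpG class, members and starts had 1.56% and 1.37% in the CpG-rich class, and 4.85% and 3.76% in the CpG-poor class. The T-box match AGGTGTGA was found in 1.13% of members and 0.572% of all coding starts, and the TATA match TATAAA in 6.07% of CpG-poor members against 13.2% of CpG-poor starts, and in 2.14% of CpG-rich members against 2.78% of CpG-rich starts.

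At least 1 member lay near a start of 3707 of the 22365 coding genes, or 16.6%, and a beside peak near 2117, or 9.47%. Both kinds were found at 125 genes. Genes whose 5'-most start was CpG-rich had a member in 27.0% and those with a CpG-poor start in 6.93%. Most members (3147) served 1 gene, 380 lay near 2 genes and 6 near 3 or more. The genes with most members were Akap13, a scaffold that anchors protein kinase A, Fnbp1, which shapes membranes, and Tcfeb, a regulator of lysosomal genes, each with 4, and a further 9 genes, such as Ankrd24 and Cep110, had 3. At Tcfeb all 4 were CpG-poor and 3 of them shared 1 H3K4me1 region of 25502 bp. The widest members were at Shisa5 (2831 bp), Smcr7 (2703 bp), Sema4a (2659 bp), Sumo3 (2559 bp) and Maff (2534 bp).

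Gene lists were compared by their counts, beside the 16.6% of all coding genes and the 67.3% of all members that were CpG-rich. Each of the 7 lymphocyte lists had a member at 28.6% to 55.6% of its genes. Of the 99 members in these lists, 14 were CpG-rich, and in 4 of the lists none was. The housekeeping lists (cytosolic ribosomal proteins, proteasome subunits and respiratory complex I) had a member at 25.6% to 38.2% of genes, and 81.0% to 91.7% of those members were CpG-rich. Beside peaks alone stood at 20.6% to 34.6% of genes in the housekeeping lists and at 0% to 15.4% in the lymphocyte lists. Most housekeeping genes had a CpG-rich start: 70 of 78 ribosomal, 32 of 34 proteasome and 31 of 35 complex I genes. Among all coding genes with a CpG-rich start, 27.0% had a member, and 17.7% had a beside peak with or without a member. The 25.6% of ribosomal genes with a member was not above that 27.0%, whereas the proteasome (38.2%) and complex I (31.4%) genes were above it.

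**Figure D5:**
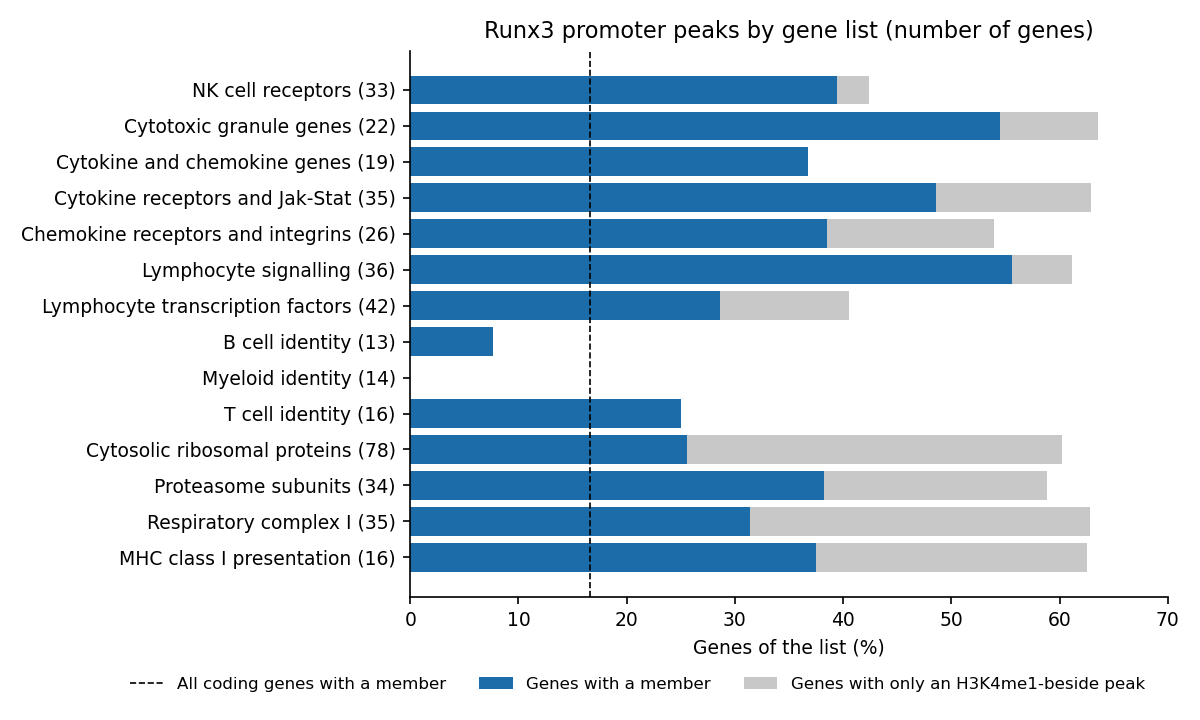
Share of the genes of each list (x axis, %) with a member (blue) or with only a beside peak (grey), the number of genes in brackets, and the dashed line at the 16.6% of all coding genes with a member. Cytotoxic granule genes (54.5%) and lymphocyte signalling genes (55.6%) have the longest blue bars, and myeloid identity genes have neither kind of peak.

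The list of NK cell receptors, mostly receptors for target cells, had a member at 13 of 33 genes (39.4%), none of it CpG-rich, with a median CpG ratio of 0.157. Only 1 of the 33 genes had a CpG-rich start. Il2rb, the shared β chain of the interleukin-2 and -15 receptors, had a member of 1345 bp at -206 bp. Its beside peak, at -19 bp, lay at another start. Klrb1f, a lectin-like receptor of the NK gene complex, had a member of 1163 bp at -301 bp with a ratio of 0.0858. Members also stood at the inhibitory receptor Tigit (45 bp), the adhesion receptor Cd96 (62 bp), Klra1, a Ly49 receptor (-171 bp), and Klrb1c, which encodes the NK1.1 antigen (12 bp), where distances are of the midpoint from the start. Many Klra genes are close copies of one another and only uniquely aligned reads were kept, so the count of 3 Klra genes with a member is uncertain. At Ncr1, which encodes NKp46, the peak was 1695 bp wide at 199 bp but was of the beside class, although its CpG ratio was 0.157.

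Cytotoxic granule genes had a member at 12 of 22 (54.5%), all CpG-poor, with a median ratio of 0.220. The widest was at Unc13d (2067 bp wide, midpoint at 62 bp), which primes granules for release. Serpinb9, an inhibitor that shields the cell from its own granzyme B, had 1562 bp at -318 bp. The effector genes followed. Nkg7, a granule membrane protein, had 1483 bp at -200 bp, Prf1, the pore-forming perforin, 1476 bp at -374 bp, and Gzmb, granzyme B, 1328 bp at -81 bp. Serpinb6b had a member of 1123 bp at 707 bp. The H3K4me1 regions that held these midpoints were 4129 to 15270 bp wide. In this list 6 genes had a CpG-rich start, and no member was CpG-rich.

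Cytokine and chemokine genes had a member at 7 of 19 (36.8%), with a median ratio of 0.332, and no beside peak. Ifng, encoding interferon-γ, had a member of 936 bp at -156 bp with a ratio of 0.352. Fasl, a death ligand, had one of 1112 bp at -25 bp, and the chemokine gene Xcl1 one of 1112 bp at -310 bp. The neighbouring chemokine genes Ccl3 (1259 bp, at -148 bp) and Ccl4 (835 bp, at -189 bp) had a member each inside the same H3K4me1 region of 21652 bp. The member at Flt3l (993 bp, at -115 bp) was also the one nearest Rpl13a, so its gene cannot be told from position.

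Cytokine receptor and Jak-Stat genes had a member at 17 of 35 (48.6%) and were mixed in CpG content, with 7 of 18 members CpG-rich. A CpG-rich member stood at Il12rb2 (1131 bp, at -57 bp, ratio 0.689). CpG-poor ones were at Ifngr2 (-682 bp, ratio 0.309), Stat4 (574 bp, ratio 0.444), which acts downstream of interleukin-12, and Il21r (-18 bp, ratio 0.272). A beside peak alone was found at 5 genes of this list.

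Chemokine receptor and integrin genes had a member at 10 of 26 (38.5%), with 11 members, none CpG-rich. S1pr1, the receptor used to leave lymphoid organs, had a member of 1378 bp at 311 bp. Others were at the integrin genes Itgb7 (833 bp), Itga4 (1 bp) and Itgb2 (25 and 883 bp, from different starts). Members also stood at the adhesion ligand gene Icam2 (-72 bp) and the chemokine receptor gene Cxcr3 (224 bp). Lymphocyte signalling genes had a member at 20 of 36 (55.6%), and 1 of 24 members was CpG-rich, at Fyn (ratio 0.758). Cd247, the ζ chain that couples receptors to kinases, had a member of 1222 bp at -269 bp, and Tyrobp, the DAP12 adaptor, one of 1040 bp at -25 bp. Lck, a Src-family kinase, had members at 2 starts (-15 and -199 bp), as did the cytoskeletal gene Wipf1 (-268 and 126 bp). The adaptor gene Lat2 had 2 members at the same start (-3 and 949 bp). Sh2d2a had 1 of 1080 bp at 8 bp.

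Transcription factor genes of lymphocytes had a member at 12 of 42 (28.6%), with 6 of 15 members CpG-rich and a median ratio of 0.529. Runx3 itself had a member at each of its promoters. The distal one was CpG-poor (1293 bp, at -233 bp, ratio 0.304) and the other, 892 bp wide at -345 bp, was CpG-rich (ratio 0.678). Runx1 had 3, of which the one at -6 bp was 1565 bp wide and CpG-poor (ratio 0.273). The one at 509 bp, measured from another start, was CpG-rich (ratio 0.713). Prdm1, encoding Blimp-1, had a CpG-rich member at -42 bp with a ratio of 0.896. Members at Nfatc3 (1313 bp wide, at 228 bp), Nfatc2 (1235 bp, at -812 bp) and Ikzf1 (1059 bp, at 200 bp) were CpG-poor. Of the 42 genes, 27 had a CpG-rich start.

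Lists for other cell types were read against the same 16.6% of all coding genes and the 6.93% of genes with a CpG-poor start. No gene of 14 in the myeloid list had a promoter peak of any class, and 1 of 13 in the B cell list (7.69%) had a member (Bank1). In the T cell list 4 of 16 (25%) had one, at Cd2, Cd28, Icos and Zbtb7b, all CpG-poor. None of the 3 Cd3 genes had a Runx3 promoter peak. Members at housekeeping genes were mostly CpG-rich. Cytosolic ribosomal protein genes had a member at 20 of 78 (25.6%) and only a beside peak at 27 (34.6%), and 17 of 21 members were CpG-rich, such as those at Rpl3 (ratio 1.00) and Rpl22 (0.849). Proteasome genes had a member at 13 of 34, among them Psmd8 (0.891) and Psma2 (0.820), and complex I genes at 11 of 35, among them Ndufa13 and Ndufb10. Of the MHC class I presentation genes, 6 of 16 had a member. The widest were at the chaperone gene Calr (1692 bp, CpG-rich), H2-M3 (1584 bp, CpG-poor) and Tapbp, which encodes tapasin and had 3 members. At 1 of these 3 the nearest coding start, 122 bp away, was not of Tapbp, whose own start was 127 bp away.

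Chromosome X stood apart from the autosomes. Of its 91 Runx3 promoter peaks, 24 were members (26.4%, interval 18.4 to 36.3%), 36 were beside peaks and 31 had no H3K4me1 overlap, while on the autosomes members made up 53.8% to 68.7%. On X 10.4% of the 5'-most coding starts lay in an H3K4me1 region and 10.8% of genes had any Runx3 promoter peak, against 25.8% to 42.7% and 20.1% to 31.4% on the autosomes. What part the lower coverage by both lists had in the share of members was not tested.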

How the data were processed

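The authors fixed NKC in 1% formaldehyde, sonicated to about 300 bp, sequenced 40 bp reads and aligned them with ELAND to mm9, keeping unique reads. The submitters' processing notes name CASAVA 1.7. Per the study's methods, reads of biological repeats were joined and regions called with MACS against NIS; the labels describe first experiments, so which reads entered the deposited lists is not settled. The deposited values are region starts and ends on mm9, and 0 value columns belonged to no sample. Their chromosome names and lengths matched the NCBIM37 sequence, apart from 1 region that ends past its chromosome.

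Midpoints were compared with the starts of 51720 protein-coding transcripts (GENCODE M1). A wide peak's midpoint need not be its summit, which was not used here. Overlap meant at least 1 bp. Functions were checked on simulated data. Python 3.11.15, numpy 2.4.6, scipy 1.17.1 and pysam 0.24.0 were used. Members and gene lists were chosen with earlier results of these data known. Named genes are up to 6 per list by widest member, the 5 widest members, the 5 genes with most members and the 5 highest and lowest CpG ratios, and genes in counts of up to 5; some genes under this rule are not reported here. Ncr1, Fyn, the Cd3 genes and some contrasts within lists were singled out after their values were seen. Alternatives changed the distance limit, start set, H3K4me1 rule, peak width, chromosomes, CpG measure and motif window.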

Additional observations from a re-analysis of the deposited data

How the results depend on the processing

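Of 55 values under 15 alternatives, 26 stayed within the interval, or for counts within 1.5 times, of the reported value. The CpG-rich share of members stayed below that of beside peaks under every alternative tried for it. The other results are counts or shares, which cannot change sign. CpG-rich members were no longer the majority with the whole peak inside H3K4me1 (49.4%) or with the stricter CpG criterion (41.2%). Asking for the whole peak inside H3K4me1 gave 1540 members at 1600 genes. Of these members 45.1% were downstream, 49.4% CpG-rich (-37.2 points from beside peaks) and 69.4% with a RUNX match. Under that rule the beside class also took in peaks with a covered midpoint that were not wholly inside the region. Its difference is therefore from another group than the -25.6 points above. Peaks wider than the median only gave 1766 members at 1927 genes and a RUNX share of 66.0%. A limit of 500 bp gave 37.0% downstream and 73.6% CpG-rich (-20 points), 1 start per gene 42.6% and 73.0% (-20.7), all transcripts 61.2% CpG-rich (-31.3) and merged H3K4me1 regions 71.9% (-19.9). Without starts on both strands 38.2% were downstream. The CpG-rich share was 63.2% in 200 bp, 64.5% in 1000 bp (-28.7), 77.1% at the nearest start (-16.5) and 41.2% with at least 55% G+C and a ratio of 0.75 (-31.3). The RUNX share was 41.0% in 100 bp and 91.6% in the whole peak. The cause of these shifts was not tested, beyond the length of sequence searched. Leaving out chromosome X moved none of these results beyond those limits. No paired analysis was possible because each group has 1 sample and no test was made. With coordinates only, depth and the strength of binding could not be weighed.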
